A study of Mus musculus with 7 samples.

Results

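Potassium channel genes were taken as all listed symbols that start with Kcn, the prefix that mouse nomenclature gives to the subunits of these channels. The RNA-seq tables listed 26607 genes, of which 95 carried this prefix. Of the 95, 28 had a mean of at least 0.5 CPM (the reads of a gene scaled by the total of its library) over the 7 libraries and make up the described set, 39 were below that level but above 0 in at least 1 library, and 28 had no read in any library. At the edge of this limit, Kcnj16 lay just inside with a mean of 0.541 CPM and Kcnu1 just outside with 0.483 CPM. Counts cover all of these genes, and 25 of the 28 are described singly.

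The libraries were made from C2C12 cells, an established line of mouse myoblasts that form contractile myotubes after serum is withdrawn. The control group (n = 3, replicates 1, 3 and 4) received no stimulation. The EPS group (n = 4, replicates 1 to 4) received electrical pulse stimulation from day 3 of differentiation, for 24 h as pulses of 1 ms at 1 Hz, followed by 1 h of rest, as a culture model of muscle contraction. The cells carry no engineered allele, the culture holds no nerve or blood vessel, and all libraries come from the same line. The comparison asked which potassium channel transcripts differ between stimulated and unstimulated myotubes. Nothing in the labels says that the replicates were separate cultures, so the p-values measure only the spread between these libraries, which may be technical. Values of single libraries are given below for replicates 1, 3 and 4 of the control group, in that order, and for replicates 1 to 4 of the EPS group.

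Potassium channels let potassium leave a cell down its gradient and so set the resting membrane potential and end each action potential. Inward rectifier channels hold the resting potential of muscle fibres. Voltage-gated, ether-a-go-go and KCNQ channels open on depolarization, calcium-activated channels open when cytosolic calcium rises, and two-pore-domain channels carry a background leak. In myoblasts, hyperpolarization by ether-a-go-go and inward rectifier channels is known as an early step before fusion, and exercise in muscle is accompanied by a loss of potassium from the fibres.

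Almost all of these pore subunits share a short selectivity filter, and its coding sequence is shown here because it is what members of different classes have in common, here an inward rectifier and a calcium-activated channel. Coding sequences of the GENCODE M21 transcripts were searched in frame, on the coding strand, for the potassium channel signature as consecutive codons for threonine, any residue, glycine, tyrosine or phenylalanine, and glycine. A match was found in 66 of 77 pore-subunit Kcn genes (85.7%), in 16 of the 20 described pore genes with a coding sequence (80%), in 0 of 17 auxiliary subunit genes and Kcnrg, and in 164 of 21536 other protein-coding genes (0.762%). No match says only that these codons are absent, as in Kcnn3 and Kcnh1. The 15 bases of the match are in capitals, 5′ to 3′, with the coding bases on either side in lower case.
Kcnj2: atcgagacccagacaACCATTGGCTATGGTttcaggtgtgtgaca
Kcnn4: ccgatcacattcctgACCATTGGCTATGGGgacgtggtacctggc
Despite the shared filter, few stretches were common to several genes. Of all 50-base stretches in the gene models, none of Kcnj12, Kcnn4 or Kcnh1 occurred in another gene, and 7 of the 5393 stretches of Kcnj2 (0.13%) did, shared with genes such as Ntn4 and Crispld1. Over the 28 genes, the highest share was 1.33%, in Kcnab2, shared with Gm16334, which overlaps it on the same strand. Genes on the opposite strand covered 20.8% and 10.7% of the exon bases of Kcnmb4 (Kcnmb4os2 and Kcnmb4os1) and 12.2% of those of Kcnk2 (A430027H14Rik), and since strand use in counting is not given in the sources used here, both levels are uncertain.

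The libraries held 16616917 to 22120641 reads in the control group and 18830229 to 21892568 in the EPS group, so that 3 reads, at or below which a gene was not told from 0 in a library, stood at 0.136 to 0.181 CPM (counting error only, since PCR copies are not independent molecules). Control replicate 4 stood apart at low levels. Only 359 genes had between 1 and 5 reads there, where other libraries had 2670 to 3181, and 30 Kcn genes were above 0, where the others had 46 to 53. Among the described genes it listed Kcnj16 and Kcnd1 at 0 and Kcnc2 at 0.181 CPM. The myotube label held: all 10 myotube markers were detected, with a summed level of 11260 to 16347 CPM in the control group and 9264 to 12161 CPM in the EPS group. These ranges overlapped. A negative log2 fold change was found in 9 of the 10, where 63% of the 13047 genes with a mean of at least 0.5 CPM had a positive one, and 1 passed an unadjusted limma P under 0.05, Actn2, which encodes the Z-disc protein alpha-actinin 2, at 75.6 ± 25.4 CPM (SD) in the control group and 36.6 ± 7.85 CPM with EPS (log2 fold change -0.99, SE 0.26, adjusted p = 0.177 in limma, and 0.0202, 0.00518 and 0.00622 in the edgeR quasi-likelihood test, the edgeR exact test and DESeq2), where 3.21% of all 19144 tested genes were lower at that P. This count of 1 was 2 to 4 in 12 of the other 17 settings and 0 with the replicate number as a block. The summed level of 6 markers of proliferating myoblasts was 218 to 313 CPM in the control group and 333 to 925 CPM in the EPS group, and 4 of the 6 (Mki67, Top2a, Cdk1 and Ccnb1) were higher at an unadjusted limma P under 0.05, as were 8.4% of all 19144 tested genes. This count of 4 was 2 without control replicate 4, without EPS replicate 1, without EPS replicate 4, without a filter, under quantile normalization, under median-of-ratios scaling and with the replicate number as a block. The rest of this list did not pass: Pax7 had a log2 fold change of -0.12 (SE 0.24) and Myf5 of 0.20 (SE 0.34), each within 1 SE of 0. Of markers of other cells, the macrophage sum was 0.641 to 1.08 CPM in the control group and 1.26 to 2.76 CPM in the EPS group, nearly all of it Cd68 and Csf1r, with Adgre1 at 0 and Ptprc at no more than 1 read in every library. The neuron sum was 18.7 to 34.1 CPM and 26.0 to 56.2 CPM, nearly all of it Tubb3, with Snap25 at 0 throughout. The endothelial sum was at most 0.904 CPM and the adipocyte sum at most 0.140 CPM. The part of these marker levels in the channel values that follow was not tested. In such bulk samples, fewer cells of a type and less RNA per cell cannot be told apart.

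**Figure D1:**
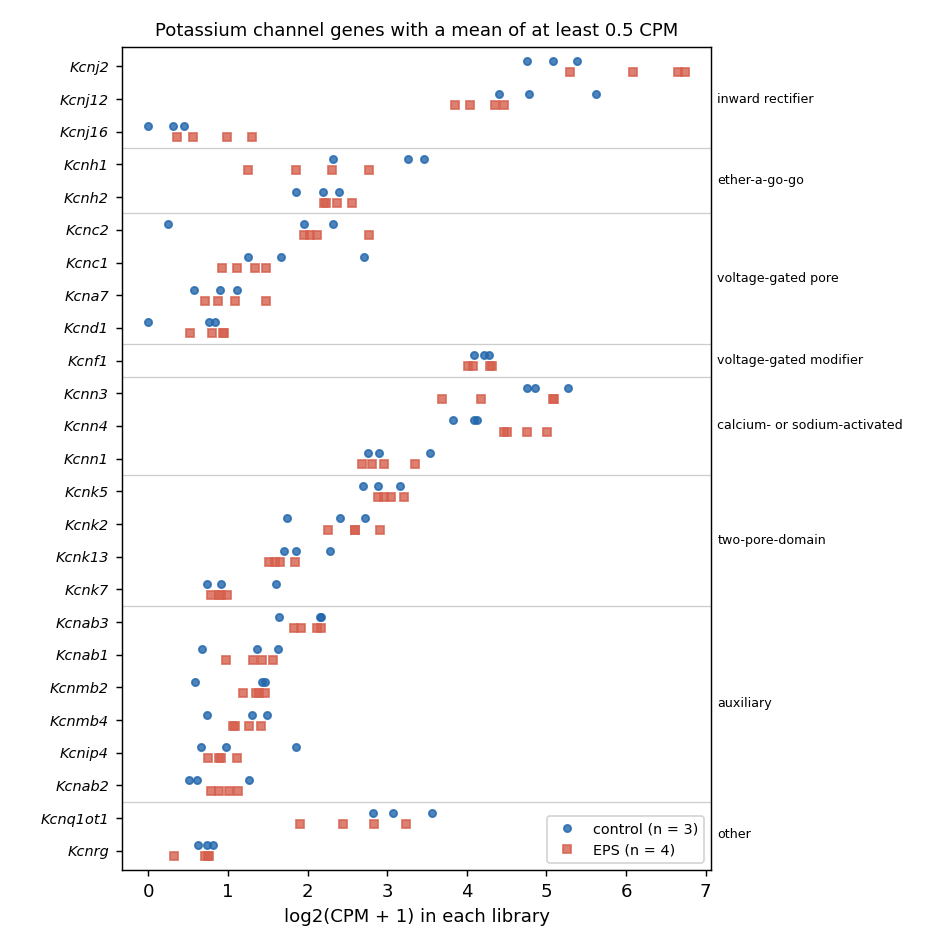
Level of the 25 singly described potassium channel genes with a mean of at least 0.5 CPM, as log2(CPM + 1) in each library (circles, 3 control libraries; squares, 4 EPS libraries), grouped by channel class and ordered by mean within a class. Kcnn4 lies higher in every EPS library, at 21.1 to 31.3 CPM against 13.2 to 16.4 CPM.

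In these myotubes the 5 most abundant genes, among them Kcnj2, Kcnn3 and Kcnj12, carried 58.0% to 71.8% of the potassium channel reads. The 95 genes together had control values of 334, 259 and 306 CPM and EPS values of 262, 336, 352 and 240 CPM. These totals overlapped between the groups. The 28 described genes held 98.2% to 99.4% of the Kcn reads of each library.

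Per kilobase of exon, which allows levels to be set side by side between genes, the mean over the 7 libraries was 10.8 CPM per kb for Kcnj2, 8.54 for Kcnj12, 4.07 for Kcnn4, 3.60 for Kcnf1 and 2.55 for Kcnn3. The lowest of the described genes was Kcnq1ot1 at 0.0704 CPM per kb, a long noncoding transcript of 93.1 kb that overlaps Kcnq1 on the opposite strand. The order of both leading inward rectifiers differed between the groups. In the control group Kcnj12 (11.5 CPM per kb) was ahead of Kcnj2 (6.09), while in the EPS group Kcnj2 (14.2) was ahead of Kcnj12 (6.32).

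Between the groups, 3 of the 28 genes were higher with EPS at an unadjusted P under 0.05 (Kcnj2, Kcnn4 and Kcnj16) and 3 were lower (Kcnj12 and Kcnh1 among them). Kcnj16 entered the 28 only through its EPS libraries, so the limit could favour its direction, and nothing is read from it. The test was limma on log2(CPM + 1), so fold changes of low genes are understated. Among all 13047 genes with a mean of at least 0.5 CPM, 9.44% were higher and 3.83% were lower at that threshold. Kcnj2 alone passed both an unadjusted P under 0.01 and a 2-fold change, thresholds passed by 1.42% of these 13047 genes in the higher and by 0.644% in the lower direction, or 2.06% in all. After Benjamini-Hochberg adjustment across the 19144 genes above 0, where 0.141% passed, 0 of the 28 had an adjusted p under 0.05 in limma, where 0.192% of the 13047 genes did. The edgeR quasi-likelihood test on recovered reads gave 1 Kcn gene at that level (Kcnj2), or 1.49% of the 67 tested, against 1.51% of all genes. The edgeR exact test and DESeq2 each gave 2, Kcnj2 among them, which is 2.99% of 67 against 2.47% of all genes, and 5.26% of the 38 with an adjusted p against 3.39%. At P under 0.01 and 2-fold these tests called 2, 3 and 2 of the 67 Kcn genes, where 3.29%, 3.62% and 3.06% of all genes passed.

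Groups that did not overlap were found in 2 of the 28 genes, Kcnn4 among them, or 7.14%, against 12.8% of the 13047 genes. The median log2 fold change of the 28 genes was 0.027, with quartiles of -0.26 and 0.21, and that of the 13047 genes was 0.097. Of the 28, 15 had a positive log2 fold change (53.6%, against 63% of the 13047 genes) and 13 a negative one, and 15 lay within 1 SE of 0. The positive ones include Kcnj16 and Kcnd1, whose control means were under the limit of 0.5 CPM. Scaling alone moved all genes: the median of the 13047 genes was 0.0049 under quantile normalization and -0.0050 under median-of-ratios scaling, and that of the 28 genes was -0.065 and -0.049. The count tests, which change the scaling and also use no pseudocount of 1 CPM, gave -0.016 to -0.0037 for the 13047 genes and -0.11 to -0.095 for the 28. The median of the channel genes was below that of all genes in each of these settings, which all use the same 7 libraries. Each gap was smaller than the SD of the channel median between libraries, 0.11, so no shift of the channel genes is read from it.

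**Figure D2:**
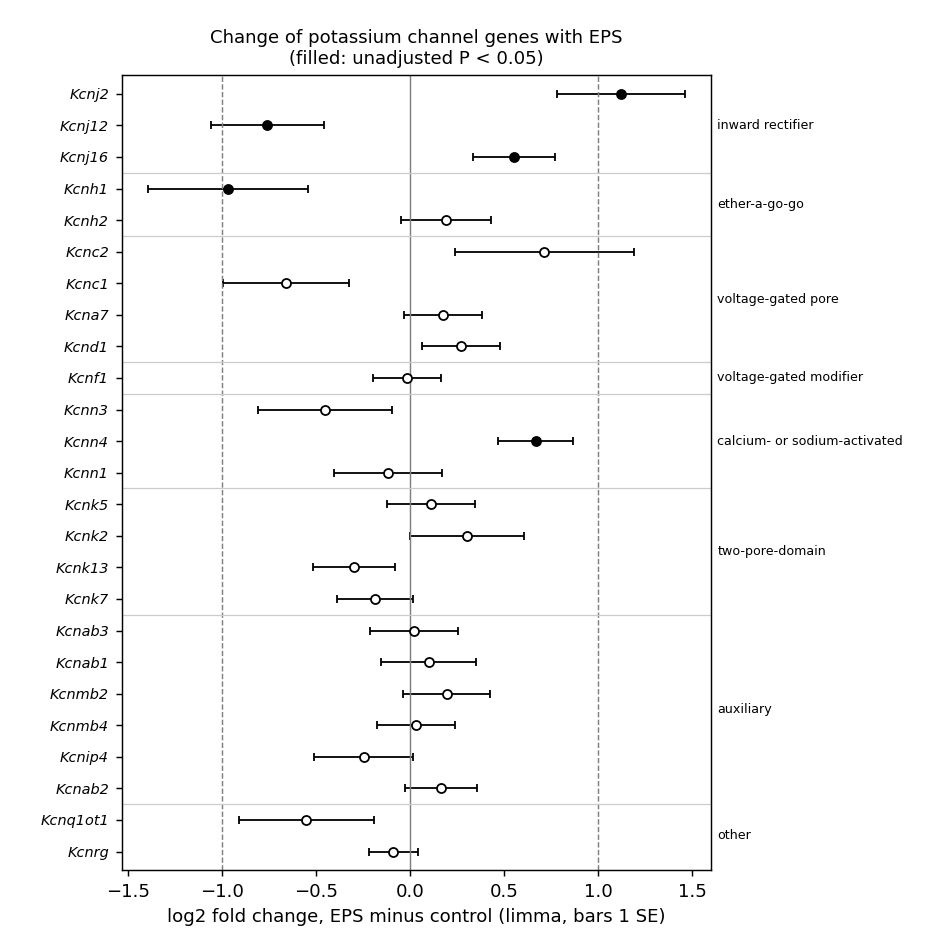
Log2 fold change of each singly described gene, EPS minus control, in limma on log2(CPM + 1); bars are 1 SE, filled points have an unadjusted P under 0.05 and dashed lines mark a 2-fold change. Only Kcnj2, at 1.12, lies beyond a 2-fold change, and Kcnh1, at -0.97, lies nearest to it in the other direction.

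The inward rectifiers showed the widest spread among the classes, with 15 genes listed, 13 above 0 and 3 described. Kcnj2 (ENSMUSG00000041695.2, chr11:111066164-111076821 of GRCm38, plus strand) encodes Kir2.1, which holds the resting potential of muscle fibres and is mutated in Andersen-Tawil syndrome. The control libraries gave 40.6, 26.0 and 32.9 CPM and the EPS libraries 38.4, 105, 99.6 and 66.8 CPM. In 3 EPS libraries it was above every control library, and EPS replicate 1 lay within the control range. The group means were 33.2 ± 7.32 CPM (SD, n = 3) and 77.6 ± 31.2 CPM (SD, n = 4). The log2 fold change was 1.12 (SE 0.34), with an unadjusted limma P of 0.00951 and an adjusted p of 0.236. The exact two-sided permutation test over all 35 ways of assigning the libraries gave p = 0.0857, where the smallest p possible is 0.0286.

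The increase of Kcnj2 at P under 0.01 and 2-fold rested on the set of libraries and on the processing. Leaving out EPS replicate 1 raised the log2 fold change to 1.42 and kept the call. It was lost, through P or fold, without control replicate 1 (1.27), without control replicate 3 (0.96), without control replicate 4 (1.13), without EPS replicate 2 (0.94), without EPS replicate 3 (0.97) and without EPS replicate 4 (1.16). Its unadjusted P was under 0.05 in all 7 of these fits, and 0.088 with the replicate number as a block (0.94). Over all settings its adjusted p lay between 0.0306, in DESeq2, and 0.625. As a share of all Kcn reads, Kcnj2 made up 12.2%, 10.04% and 10.8% in the control libraries and 14.7%, 31.4%, 28.3% and 27.8% in the EPS libraries.

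Kcnj12 (ENSMUSG00000042529.14, chr11:61022564-61071131, plus strand) encodes Kir2.2, the closest relative of Kir2.1, with which it can form mixed channels. The control values were 26.5, 20.2 and 48.3 CPM and the EPS values 19.4, 15.5, 21.2 and 13.4 CPM. Control replicate 3 lay within the range of the EPS group, and control replicate 4 lay far above all other libraries. The log2 fold change was -0.76 (SE 0.30, adjusted p = 0.376 in limma), with group means of 31.7 ± 14.8 CPM (SD, n = 3) and 17.4 ± 3.57 CPM (SD, n = 4) and p = 0.0571 in the exact permutation test. Without control replicate 4 it was -0.41, with an unadjusted P above 0.05. The unadjusted P was also above 0.05 without EPS replicate 2 (-0.71) and without EPS replicate 4 (-0.65), whereas without control replicate 3 the value was -1.02, past P under 0.01 and 2-fold. Among the other settings its P was 0.062 without a filter and 0.163 with the replicate number as a block. The edgeR exact test, the edgeR quasi-likelihood test and DESeq2 gave -0.98 to -0.97. These values were under 2-fold, with adjusted p of 0.0719 (DESeq2) to 0.0980 (quasi-likelihood test).

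Both Kir2 genes were thus measured at similar levels per kilobase in some libraries and not in others. The ratio of Kcnj2 to Kcnj12, each per kilobase, was 0.776, 0.651 and 0.344 in the control libraries and 0.999, 3.44, 2.37 and 2.52 in the EPS libraries. Every EPS library had a higher ratio than every control library, although EPS replicate 1 was near the controls. This ratio was chosen after the values had been seen and carries no test.

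Kcnj16 (ENSMUSG00000051497.15, chr11:110968033-111027968, plus strand) lies upstream of Kcnj2 on the same strand and encodes Kir5.1, which conducts in combination with Kir4.1. It was scarce, with control values of 0.233, 0.361 and 0 CPM and EPS values of 0.279, 0.974, 1.46 and 0.478 CPM. Its mean passed the limit of 0.5 CPM only through the EPS libraries, and EPS replicate 1 lay below control replicate 3. The log2 fold change was 0.55 (SE 0.22, adjusted p = 0.372 in limma; p = 0.143 in the exact permutation test), and it was 1.65 with a pseudocount of 0.1 and 1.94 to 1.96 in the count tests. The unadjusted limma P of 0.0327 rose above 0.05 without control replicate 1 (0.58), without control replicate 4 (0.43), without EPS replicate 2 (0.49), without EPS replicate 3 (0.38) and without a filter. The gene of its partner Kir4.1, Kcnj10, had no more than 1 read in any library.

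**Figure D3:**
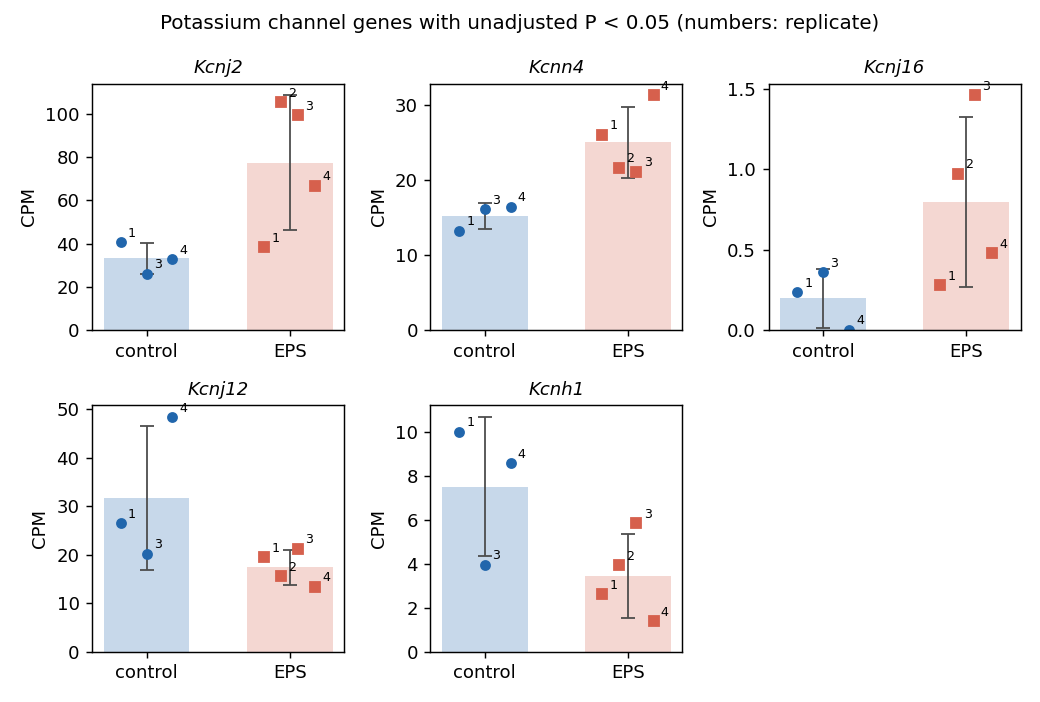
CPM in each library of the 5 singly described genes with an unadjusted limma P under 0.05; bars are group means from 0, error bars 1 SD, points the libraries with their replicate numbers (control n = 3, EPS n = 4), and each panel has its own axis. EPS replicate 1 of Kcnj2, at 38.4 CPM, sits within the control range, and control replicate 4 of Kcnj12, at 48.3 CPM, sits far above the other libraries.

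Of the KCNQ channels, Kcnq1, whose product is known for cardiac repolarization, stood at 0.0931 to 0.678 CPM, and Kcnq3 and Kcnq5, which encode subunits of the neuronal M-current, had no reads.

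Among the described calcium-activated channels, Kcnn4 separated the groups completely. Kcnn4 (ENSMUSG00000054342.8, chr7:24370263-24386690, plus strand) encodes KCa3.1, the intermediate-conductance channel, known from proliferating myoblasts, lymphocytes and red cells. The control values were 13.2, 16.1 and 16.4 CPM and the EPS values 26.0, 21.6, 21.1 and 31.3 CPM. All EPS values exceeded all control values, and the highest was EPS replicate 4, which also had the highest summed level of proliferating myoblast markers. An association of Kcnn4 with these markers was not tested. The log2 fold change was 0.67 (SE 0.20), with means of 15.2 ± 1.74 CPM (SD, n = 3) and 25.01 ± 4.73 CPM (SD, n = 4), an adjusted p of 0.233 in limma and p = 0.0286 in the exact permutation test. It kept its direction and an unadjusted P under 0.05 in all 18 settings, between 0.53 under quantile normalization and 0.74 without EPS replicate 3, with adjusted p from 0.160 to 0.558.

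The small-conductance genes gave no such separation. Kcnn3 (chr3:89520164-89675132), which encodes SK3, a channel known from immature and denervated muscle, had control values of 37.7, 25.9 and 27.9 CPM and EPS values of 17.1, 33.0, 32.8 and 11.9 CPM. EPS replicates 1 and 4 were below, and replicates 2 and 3 within, the control range (log2 fold change -0.45, SE 0.36, adjusted p = 0.679 in limma). Leaving out 1 library gave -0.64 (without EPS replicate 2 or EPS replicate 3) to -0.18 (without EPS replicate 4). Kcnn1 (SK1) had means of 7.61 ± 2.59 CPM (SD, n = 3) and 6.85 ± 1.68 CPM (SD, n = 4), with a log2 fold change of -0.12 (SE 0.29). Kcnn2 had no reads. Kcnma1, the pore of the large-conductance BK channel, was at most 0.233 CPM, while its auxiliary genes Kcnmb2 and Kcnmb4 passed the limit at 1.45 and 1.31 CPM.

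In the ether-a-go-go class, Kcnh1 (ENSMUSG00000058248.12, chr1:192190774-192510159, plus strand) encodes Kv10.1, whose current hyperpolarizes human myoblasts that are about to fuse. The control values were 10.03, 3.97 and 8.59 CPM and the EPS values 2.61, 3.95, 5.85 and 1.38 CPM. Control replicate 3 lay among the EPS libraries and EPS replicate 3 above it, so the groups overlapped. The log2 fold change was -0.97 (SE 0.42, adjusted p = 0.426 in limma; p = 0.114 in the exact permutation test), with an unadjusted P of 0.0487, the weakest of the 5 genes named above. It passed P under 0.01 and 2-fold in both edgeR tests (-1.23) and in DESeq2 (-1.24), with adjusted p of 0.161, 0.154 and 0.137. In limma its P was above 0.05 without control replicate 1 (-0.74), control replicate 4 (-0.84), EPS replicate 1 (-0.90), EPS replicate 2 (-1.05) or EPS replicate 4 (-0.70), without a filter, and with the replicate number as a block. Kcnh2, which encodes the cardiac hERG channel, was at 3.49 ± 0.828 CPM (SD, n = 3) and 4.08 ± 0.583 CPM (SD, n = 4), and the log2 fold change was 0.19 (SE 0.24), between 0.044 without control replicate 1 and 0.31 without control replicate 3.

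Among the voltage-gated pore genes, 17 were listed, 12 were above 0 and 6 are described, and none of the 6 had an unadjusted P under 0.05. Kcnf1, an electrically silent subunit that modifies other voltage-gated channels, was steady, at 17.3 ± 1.16 CPM (SD, n = 3) and 17.2 ± 1.91 CPM (SD, n = 4), and the log2 fold change was -0.017 (SE 0.18), between -0.067 and 0.038 without 1 library and at -0.16 under quantile normalization.

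Kcnc1 and Kcnc2 encode fast Kv3 channels. Kcnc2 had control values of 2.86, 3.97 and 0.181 CPM and EPS values of 3.07, 5.80, 3.33 and 2.87 CPM (log2 fold change 0.71, SE 0.48). Its low value in control replicate 4 rested on 4 reads, and without that library the log2 fold change was 0.084, whereas without control replicate 3 it was 1.12 with an unadjusted P of 0.0439. For Kcnc1 control replicate 1 held the highest value, 5.54 CPM, the others 1.38 and 2.17 CPM, and the EPS libraries 0.903 to 1.78 CPM (-0.66, SE 0.33), and its unadjusted P was under 0.05 in both edgeR tests and DESeq2 but not in limma. Its log2 fold change was -0.24 without control replicate 1 and -0.97, with P under 0.05, without control replicate 3. Kcnd1, an A-type Kv4 subunit, was at 0.644 CPM on average (0.27, SE 0.21, and 0.0035 without control replicate 4). Its mean was 0.494 CPM in the control group, under the limit of 0.5 CPM, and 0.757 CPM with EPS. The limit could thus favour its direction, and none is read from it. Kcna7, a Kv1 subunit known from heart and skeletal muscle, was at 0.835 ± 0.343 CPM (SD, n = 3) and 1.09 ± 0.501 CPM (SD, n = 4), with an adjusted p of 0.795 in limma.

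Of the two-pore-domain genes, 14 were listed, 9 were above 0 and 4 are described, none with an unadjusted limma P under 0.05. Kcnk5 (TASK-2, chr14:20140057-20181809), a channel inhibited by extracellular acid, had control values of 6.35, 5.48 and 7.91 CPM and EPS values of 6.38, 6.77, 7.26 and 8.23 CPM. These values overlapped, and the log2 fold change of 0.11 (SE 0.23, adjusted p = 0.869 in limma) became -0.030 under quantile normalization and lay between 0.0065 and 0.24 without 1 library. Kcnk2, the stretch-sensitive TREK-1, was at 4.07 ± 1.64 CPM (SD, n = 3) and 5.09 ± 1.12 CPM (SD, n = 4). Kcnk13 and Kcnk7 had log2 fold changes of -0.30 (SE 0.22) and -0.19 (SE 0.20), which without control replicate 3 were -0.13 and -0.36 and in DESeq2 -0.55 and -0.61.

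Auxiliary subunits, which bind the pores and tune their gating, were present at low levels. Of 16 listed genes, 13 were above 0 and 6 are described: Kcnab1, Kcnab2 and Kcnab3 (beta subunits of Kv1 channels), Kcnmb2 and Kcnmb4 (beta subunits of BK channels) and Kcnip4 (a calcium-binding partner of Kv4 channels). Their log2 fold changes lay between -0.25 and 0.19, and none had an unadjusted P under 0.05. Without control replicate 4, Kcnab2 was at 0.40 with P under 0.05, and the sign turned for Kcnab1 (-0.18), Kcnmb2 (-0.092), Kcnab3 (-0.15) and Kcnip4 (0.10), as it did for Kcnk7 (0.074) and Kcnn1 (0.12). Kcnab3 and Kcnmb4 also turned under quantile normalization (-0.089 and -0.041), under median-of-ratios scaling and in the count tests. The highest level was that of Kcnab3, at 3.02 ± 0.774 CPM (SD, n = 3) and 3.04 ± 0.447 CPM (SD, n = 4). Summed, the 16 genes gave 9.70 ± 0.814 CPM (SD, n = 3) without and 10.1 ± 0.926 CPM (SD, n = 4) with EPS. The other described genes were Kcnrg, which encodes a soluble regulator of Kv1 assembly (0.654 ± 0.108 and 0.566 ± 0.217 CPM), and Kcnq1ot1, whose RNA silences neighbouring imprinted genes (log2 fold change -0.55, SE 0.36, and -0.32 without EPS replicate 2 or -0.35 without control replicate 1).

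**Figure D4:**
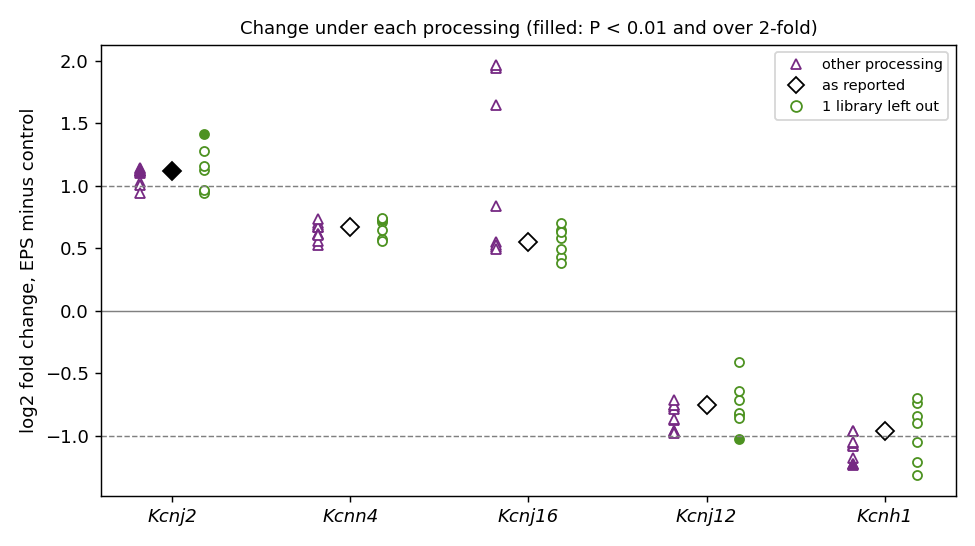
Log2 fold change (EPS minus control) of the 5 singly described genes with an unadjusted P under 0.05, as reported (diamonds), under the other processing settings (triangles) and with 1 library left out (circles); filled symbols pass P under 0.01 and 2-fold and dashed lines mark a 2-fold change. All values keep their sign, Kcnj2 ranges from 0.94 to 1.42 and Kcnj12 from -1.02 to -0.41. Nothing is read from the sign of Kcnj16, which passed the limit of 0.5 CPM only through its EPS libraries.

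Of the 39 genes between 0 and 0.5 CPM, 24 had no more than 3 reads in every library and so were not told from 0. Over all 67 Kcn genes above 0, 9 were higher and 5 lower at an unadjusted limma P under 0.05, that is 13.4% and 7.46%, against 8.4% and 3.21% of all 19144 tested genes. The 8 of these 14 that are below 0.5 CPM rest on at most 20 reads in any library. Without 1 library, the count of 14 fell to 8 (without control replicate 1, EPS replicate 2 or EPS replicate 3) or 9 (without control replicate 4 or EPS replicate 4). Groups did not overlap in 5 of the 67 genes, against 10.6% of all tested genes. Among them, Kcnn4, Kcnu1 and Kcnk6 had higher values in all EPS libraries than in all control libraries, with 3, 3 and 0 control reads and 6, 6, 9 and 8 EPS reads for Kcnk6. Kcnj6 is among the 5 by its values alone: with 0 reads in the control libraries and 1 to 3 in the EPS libraries it was not told from 0 in any, and no direction is read from it. These 3 genes below the limit of 0.5 CPM are named because the count is small.

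Kcnu1, which encodes the sperm-specific Slo3 channel, had control values of 0.175, 0.301 and 0 CPM and EPS values of 0.372, 0.877, 0.914 and 0.743 CPM (log2 fold change 0.57, SE 0.14, adjusted p = 0.152 in limma). The value was 1.83 with a pseudocount of 0.1, past P under 0.01 and 2-fold. In the count tests it was 2.13 to 2.15, with adjusted p of 0.177 to 0.297. Of these tests, the edgeR exact test alone passed P under 0.01 and 2-fold. The control reads numbered 3, 5 and 0 and the EPS reads 8, 18, 20 and 14. Kcnj11, the Kir6.2 pore of the ATP-sensitive channel of muscle, went the other way, with 9, 7 and 0 control reads and 0, 1, 2 and 1 EPS reads. It overlapped through the 0 of control replicate 4, and was chosen for naming as a muscle channel after its values had been seen.

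The 28 genes with no read in any of the 7 libraries included Kcnq3 and Kcnq5; Kcnn2; Kcnh6 and Kcnh8; Kcnj1 and Kcnj5; Kcnk1, Kcnk9, Kcnk15, Kcnk16 and Kcnk18; Kcna1, Kcna5, Kcna6, Kcna10 and Kcnb2; Kcng1, Kcng3, Kcng4, Kcns1, Kcns2, Kcns3 and Kcnv1; and Kcne1l, Kcne3 and Kcnip2. Over all libraries, 0 reads allow a level of up to 0.0216 CPM, and over the 6 libraries other than control replicate 4, in which few genes had low values, of up to 0.0258 CPM. Whether low values were removed from that library is not given in the sources used here, so a 0 there may not mean 0 reads. The silent modifier subunits thus had few reads apart from Kcnf1, with 7 of 10 at 0.

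Genes whose products work with potassium channels or move potassium were read as a list of 23, of which 21 were above 0. Of these 13 had a positive and 8 a negative log2 fold change, and 1 passed an unadjusted P under 0.05 in each direction, as did 8.4% of all tested genes in the higher and 3.21% in the lower direction. This count of 2 was 5 without control replicate 4 and 4 without EPS replicate 1 or with the replicate number as a block. Lrrc26, which encodes a gamma subunit of the BK channel, was lower, with control values of 1.69, 4.27 and 1.94 CPM and EPS values of 0.652, 0.779, 0.457 and 0.159 CPM. All EPS libraries were below all control libraries. Its log2 fold change was -1.22 (SE 0.26, adjusted p = 0.108 in limma and p = 0.0286 in the exact permutation test), past P under 0.01 and 2-fold. Of all tested genes, 0.439% passed both thresholds in that direction and 1.41% in either. The value of Lrrc26 was -0.91, under 2-fold, without control replicate 3, and past both thresholds in each other fit without 1 library. In the count tests it was at -2.46 to -2.44 and passed adjustment, with adjusted p of 0.0189 in the edgeR quasi-likelihood test, 0.00111 in the edgeR exact test and 0.00108 in DESeq2. Hcn2, a cation channel that passes sodium and potassium, was higher, at 0.732 ± 0.195 CPM (SD, n = 3) and 1.75 ± 0.619 CPM (SD, n = 4), and the log2 fold change was 0.65 (SE 0.20, adjusted p = 0.237 in limma), or 1.12 with a pseudocount of 0.1 and 1.17 in the count tests. The other partners, among them the chloride cotransporter gene Slc12a2 (0.11, SE 0.27), the sarcoplasmic reticulum channel gene Tmem38a (-0.032, SE 0.18) and the ubiquitin ligase gene Nedd4l (0.039, SE 0.14), did not pass the test.

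The 250 bases before the RefSeq start (GRCm38.p6) are shown for Kcnj2 and Kcnn4, the described genes that were higher at an unadjusted P under 0.01. A promoter entry was matched for 23 of the 28 genes. Both windows hold 1 CACGTG, in capitals, the E-box form that basic helix-loop-helix factors bind, at -84 in Kcnj2 and -133 in Kcnn4. Of 32851 RefSeq promoter windows of this length, 6.02% hold it.
Kcnj2, chr11:111065914-111066163, plus strand: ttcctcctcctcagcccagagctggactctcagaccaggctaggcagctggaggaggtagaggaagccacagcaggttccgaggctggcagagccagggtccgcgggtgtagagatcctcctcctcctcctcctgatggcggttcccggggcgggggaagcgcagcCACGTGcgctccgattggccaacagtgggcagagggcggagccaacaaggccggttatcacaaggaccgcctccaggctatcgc
Kcnn4, chr7:24370013-24370262, plus strand: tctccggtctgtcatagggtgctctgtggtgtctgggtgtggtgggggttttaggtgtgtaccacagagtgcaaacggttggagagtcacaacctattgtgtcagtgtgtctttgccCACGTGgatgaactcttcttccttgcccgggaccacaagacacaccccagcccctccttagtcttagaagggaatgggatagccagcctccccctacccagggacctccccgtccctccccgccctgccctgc
Both strands were searched, and the palindrome reads the same on each. The wider CANNTG, which includes CACGTG, was held by 66.2% of all windows. TGACNNNGC (10.2% of windows), GCGTG (28.2%) and TGANTCA (6.75%) had no match in either window. CACGTG was chosen for display after the sequences had been seen, so the match is a description only.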

How the data were processed

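The authors selected poly(A) RNA, made directional libraries, sequenced paired reads of 100 bp and mapped them with STAR 2.5.4b to GRCm38. They deposited CPM, 1 value per gene and library, neither log-transformed nor quantile-normalized in the files. The read counter, annotation and strand use are not given in the sources used here, so values of overlapping genes, such as Kcnq1ot1 and Kcnq1, are uncertain.

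Whole reads were recovered from the CPM in 100% of values, within 0.05 reads. The 19144 genes with a read in any library entered limma 3.58.1 (R 4.3.3) as log2(CPM + 1), with Benjamini-Hochberg adjustment over all of them, and single genes with an exact two-sided permutation test (scipy 1.17.1). All 7 libraries entered without a covariate. Described in full were Kcn genes of at least 0.5 CPM with P under 0.05, with groups that do not overlap, among the 5 most abundant, or on a list of muscle channels. Members and lists were chosen with earlier results of these data known. Alternative settings included other pseudocounts (0.5, 0.1), only genes with a mean of at least 1 CPM, no filter, quantile and median-of-ratios scaling, edgeR 4.0.16 and DESeq2 1.42.0 on the recovered reads, a replicate block, a P threshold of 0.001, and leaving out each library. The edgeR quasi-likelihood test called 2 Kcn genes at P under 0.01 and 2-fold, 2.99% of those tested, against 3.29% of all genes.

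On simulated reads with 200 of 18575 genes changed by 2 on the log2 scale, limma recovered 191 at P under 0.01 and 2-fold and called 5 unchanged genes. At an adjusted p under 0.05 it recovered 163 and called 9 unchanged genes, and at an unadjusted P under 0.05 it recovered 200 and called 893. The changed genes were drawn from those with a mean of at least 1 CPM. Recovery of scarcer genes or of smaller changes, such as those of the channel genes, was not measured. Gene models of GENCODE M21 were matched by symbol for 24512 of 26607 genes (92.1%), and for all 95 Kcn genes. Some single genes and sequences are not reported here, but counts and medians include them.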

Additional observations from a re-analysis of the deposited data

Results flagged for a closer look

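In the EPS group (n = 4), the gap between an extreme library and its nearest neighbour was looked at for each of the 28 described genes, and chance marks about 1 in 20 such groups. The gap exceeded Dixon's 95% critical value in 2 genes, in EPS replicate 2 both times. Kcnc2, a Kv3 channel gene, was highest there at 5.80 CPM, with a gap of 0.841 of the range. Kcnrg, which encodes a regulator of Kv1 assembly, was lowest there at 0.244 CPM, with a gap of 0.866 of the range.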

How the results depend on the processing

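The count of Kcn genes past P under 0.01 and 2-fold, 1 as reported, was 2 with a pseudocount of 0.1, in the edgeR quasi-likelihood test and in DESeq2, 3 in the edgeR exact test, and 0 without a filter, under quantile normalization, under median-of-ratios scaling, at a P threshold of 0.001 and with the replicate block. Leaving out each library gave 0 to 1. The count with an adjusted p under 0.05, 0 as reported, was 1 in the edgeR quasi-likelihood test and 2 in the edgeR exact test and in DESeq2, and 0 in every fit without 1 library. The count of 14 genes with P under 0.05 was 5 at a mean of at least 1 CPM, 7 without a filter, 9 in the edgeR exact test and with the block, 8 in DESeq2, and 8 to 13 without 1 library. The count of 5 genes whose groups do not overlap was 2 at a mean of at least 1 CPM, and 6 to 14 without 1 library. It was 14 without control replicate 3, 12 without control replicate 4, 9 without control replicate 1, and 8 without EPS replicate 1 or 4. With fewer libraries, groups separate more easily in any gene. No share of all genes is given for the fits without 1 library. Nothing about the channel genes is therefore read from their counts, by overlap or by P. The median log2 fold change of the described genes, 0.027, was -0.096 in the edgeR quasi-likelihood test, -0.095 in the edgeR exact test and -0.11 in DESeq2, and -0.030 to 0.063 without 1 library.

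Under quantile normalization the sign turned for Kcnk5 (-0.030), Kcnab3 (-0.089) and Kcnmb4 (-0.041), and the last 2 also turned under median-of-ratios scaling and in the count tests. The cause of these changes was not tested, except that a higher minimum leaves fewer genes and a left-out library fewer samples. Same-numbered libraries had correlations of 0.25, -0.45 and 0.068 of their deviations over 12256 genes, so the replicate numbers were not taken as pairs. Differently numbered libraries ranged from -0.46 (control replicate 1 with EPS replicate 2) to 0.59 (control replicate 1 with EPS replicate 3). Whether libraries of both groups share a factor that no label gives was not tested. With the number as a block, in effect a fit of 3 pairs without EPS replicate 2, Kcnj2 was at 0.94 (limma adjusted p = 0.625) and Kcnn4 at 0.73. Depth limits the 24 genes with no more than 3 reads in any library.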
